A study of Rattus norvegicus with 9 samples.

Results

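The responses of rat bone marrow mesenchymal stem cells (MSCs) to a hydrogel of intermediate stress relaxation were examined for genes that left the graded order from slow to fast relaxation. The level of each gene in Medium was set against the midpoint of Fast and Slow, which is the mean of the log2 levels of those groups. All 9 of the 9 libraries of the series entered this contrast, with 3 Medium libraries on one side and 3 Fast and 3 Slow libraries on the other. The labels chose the libraries, and no measured value did. A gene that is graded on the log2 scale lies near the midpoint, a gene that is level with one end lies away from it, and a gene whose level is highest or lowest in Medium lies beyond both ends.

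A matrix relaxes stress when its bonds or chains rearrange under a load, so that the resistance a cell feels fades with time. Fast relaxing gels let encapsulated cells remodel the surrounding network, spread and cluster adhesion receptors, and relaxation rate is known to alter spreading and bone-forming differentiation of MSCs. MSCs sense such a matrix through integrins and the actin cytoskeleton, and they also secrete chemokines, growth factors and matrix that act on other marrow cells.

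The cells were marrow MSCs grown in low-glucose DMEM with serum and antibiotics in all 3 groups, and were kept for 48 h in an SA hydrogel with fast, medium or slow stress relaxation (Fast, Medium and Slow below). Polyadenylated RNA of each culture's cells was measured in bulk, with a library kit made for single cells. Whether replicate libraries stem from different animals or dishes is not stated, and the p-values therefore reflect only the spread among libraries, which may be technical. No unencapsulated cells and no other time point were analysed here, and the relaxation rate itself cannot be checked from RNA.

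The libraries held 14128980 to 15779328 counts, and 14406 of the 33539 listed genes had enough counts to be tested. Slow library 3 stood apart in holding 965 genes counted in no other library, against 126 to 205 such genes in each of the other 8. Stromal markers were abundant in every library, and summed over 17 genes they reached 8143 to 8410 CPM (counts scaled to a common library size) in Fast, 6824 to 6942 in Medium and 7716 to 7745 in Slow. Markers of myeloid cells were present too, with sums over 20 genes of 3328 to 3486 CPM in Fast, 2253 to 2258 in Medium and 1931 to 1992 in Slow. Lymphocyte and neutrophil markers summed to 23.7 to 60.6 CPM, endothelial markers to 43.7 to 57.7 CPM and erythroid markers to 2.16 to 3.46 CPM, with Cd3g, Cd3d, Cd79b, Ms4a1, Cldn5, Hbb and Hba1 at 0 in every library. The osteoclast list summed to 359.6 to 430.4 CPM with Dcstamp at 0. These RNAs come from bulk samples, in which fewer cells of a type and less RNA per cell cannot be told apart.

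Medium differed from the midpoint at 1741 of the 14406 genes, which is 12.1% (edgeR quasi-likelihood test, Benjamini-Hochberg adjusted p under 0.05). Of these, 1037 genes (7.2%) were above the midpoint and 704 (4.89%) below it. With library size as the only scaling the split turned to 859 above and 964 below, and the median difference over all genes moved from 0.0011 to -0.026 on the log2 scale. Most departures were small, with a median size of 0.29 on the log2 scale, and 111 genes departed at least 2-fold, 74 of them above and 37 below. Being beyond both ends was tested by requiring Medium to differ from Fast and from Slow in the same direction, with the larger of those p-values adjusted over all genes. That test called 129 genes (0.895%), 65 above both ends (0.451%) and 64 below both ends (0.444%). In each of the 129 genes the 3 Medium libraries lay outside all 6 others. The test that picked these genes used the same libraries, so this order is no separate support for them. Among all tested genes it was seen in 492 (3.42%) for Medium highest and in 391 (2.71%) for Medium lowest.

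**Figure D1:**
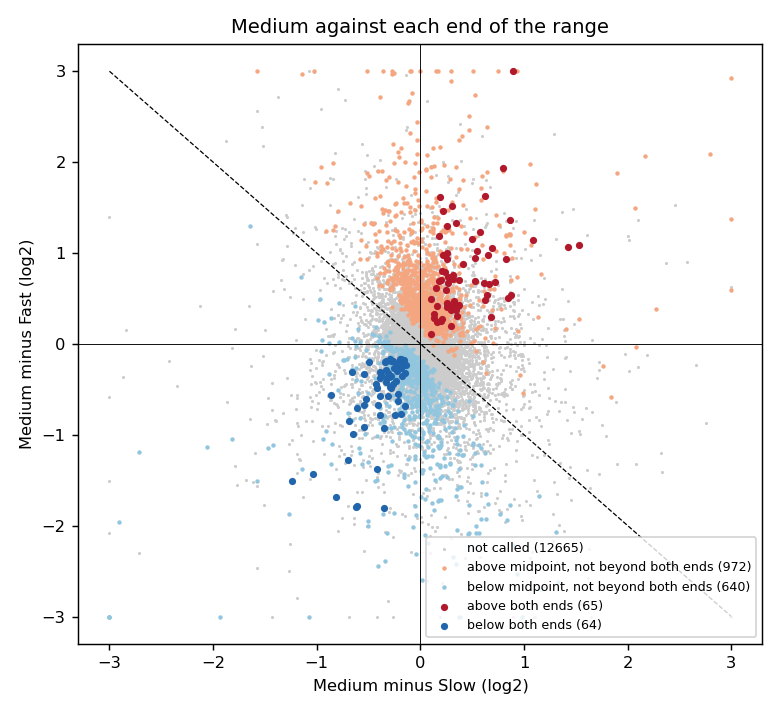
Each point is a gene, with Medium minus Slow on the horizontal axis and Medium minus Fast on the vertical axis, both in log2 units and clipped at 3 in either direction; the dashed line marks genes at the midpoint. The 65 genes above both ends lie in the upper right and the 64 below both ends in the lower left of the plot.

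The count of genes beyond both ends depended on which libraries entered. It fell to between 78 and 85 when any 1 Medium library was left out, to 83, 86 and 80 without Slow library 1, 2 and 3, and it was 173 without Fast library 1. Under all 18 other settings of scaling, filter, tool and library, 67 of the 129 genes were called each time. Genes described below as beyond both ends belonged to these 67 unless a loss is given. Among the 129, 80 genes also differed between Fast and Slow, against 42.9% of all genes, and 10 did so by at least 2-fold, against 7.97% of all genes.

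Several chemokines and other targets of NF-kB, the transcription factor family that drives inflammatory genes, had their lowest level in Medium. Of 26 tested members of that list, 17 were below the midpoint against 4.89% of all genes, 5 were above it (3 without Medium library 3) against 7.2%, and 8 were below both ends against 0.444% of all genes. The median difference of the list from the midpoint was -0.22 on the log2 scale, against 0.0011 over all genes. Over the alternative settings 15 to 18 members were below the midpoint and 7 or 8 below both ends.

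Ccl20, the ligand that draws CCR6-bearing lymphocytes and dendritic cells, had the largest drop below both ends. It lies at chromosome 9, 88918433 to 88921001, in the coordinates of the deposited table. It stood at 112, 103 and 106 CPM in Fast, against 35.1, 35.9 and 41.02 in Medium and 93.9, 83.4 and 87.2 in Slow. The 3 Medium libraries were alike and lay far under the range of both other groups, which lay near each other. Medium minus Fast was -1.51 ± 0.065 on the log2 scale (± SE, as for all log2 differences below) and Medium minus Slow -1.24 ± 0.065, with an adjusted p of 3.00e-07 for being below both ends. Ccl2, which recruits monocytes, had 662, 621 and 606 CPM in Fast, against 408, 415 and 413 in Medium and 611, 578 and 587 in Slow. Its neighbour Ccl7, a related monocyte chemokine, had 359.9, 355 and 348 CPM in Fast, against 259, 247 and 251 in Medium and 342, 332 and 340.2 in Slow. Medium was again lowest without overlap, with a difference from the midpoint of -0.57 ± 0.029 for Ccl2 and -0.46 ± 0.026 for Ccl7 (adjusted p beyond both ends = 1.29e-06 and 3.21e-06). Csf1, the growth factor of macrophages, differed less, with 555 ± 8.72, 486 ± 5.204 and 582 ± 6.298 CPM in Fast, Medium and Slow (SD, n = 3), and was also below both ends (adjusted p = 0.00109).

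Members of the list that act inside the cell were among the 8 as well. Birc3, an inhibitor of apoptosis that acts in TNF receptor signalling, had 43.9, 37.97 and 39.04 CPM in Fast, against 24.7, 25.3 and 24.02 in Medium and 35.4, 38.6 and 38.9 in Slow. Tnfaip3, the ubiquitin-editing enzyme that damps NF-kB activation, had 34.4, 35.9 and 33.8 CPM in Fast, against 26.7, 24.6 and 25.3 in Medium and 33.7, 36.6 and 32.6 in Slow. For both genes Fast and Slow overlapped or touched while Medium lay under them, with differences from the midpoint of -0.66 ± 0.063 and -0.43 ± 0.059 (adjusted p beyond both ends = 0.000367 and 0.00439). Nfkbia, which encodes the inhibitor that holds NF-kB in the cytoplasm, had 107, 106 and 109 CPM in Fast, against 88.1, 89.1 and 85.5 in Medium and 106, 100.4 and 101 in Slow. Its call beyond both ends (adjusted p = 0.011) was lost without Medium library 1 or 3 or Slow library 1 (adjusted p = 0.057 to 0.0832). Sod2, the mitochondrial superoxide dismutase, had 1589.7, 1549.5 and 1584 CPM in Fast, against 1266, 1271 and 1277 in Medium and 1646, 1675 and 1671 in Slow, with Medium minus Fast at -0.31 ± 0.021 and Medium minus Slow at -0.39 ± 0.021 (adjusted p = 1.55e-06). Outside the list, Cxcl16, Tnip1 and Tnfaip2, which inflammatory signals induce, were below both ends and were picked out after their values were seen.

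The list did not move as one. Il6, Ptgs2 and Lif followed relaxation rate step by step, with Ptgs2, the inducible prostaglandin synthase, at 494 ± 29.6, 1319 ± 10.6 and 3233 ± 56.7 CPM in Fast, Medium and Slow (SD, n = 3). Il6 kept that order but was still called below the midpoint, as described further on. Above the midpoint were Cxcl3, Csf3, Lif and Il11, by 0.15 ± 0.032, 0.39 ± 0.048, 0.17 ± 0.038 and 0.58 ± 0.064, with Lif uncalled without Medium library 3 (adjusted p = 0.0629). The chemokine Cxcl2 was the remaining member above it, and its call was lost without Medium library 1 or 3 (adjusted p up to 0.0602). Il11, a cytokine of the interleukin 6 family, stood at 6.23, 24.9 and 44.6 CPM in Fast, Medium and Slow. Vcam1, the adhesion receptor that stromal cells show to blood cells, was below the midpoint, at -1.11 ± 0.088, and nearer Slow than Fast, with 36.1 ± 3.48, 9.88 ± 0.951 and 12.7 ± 0.462 CPM in Fast, Medium and Slow. The myeloid marker sums given above lay between those of Fast and Slow in Medium and the stromal sums were lowest there, and their part in these differences was not tested.

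Several genes of the endoplasmic reticulum (ER) that fold secreted proteins also had their lowest level in Medium. Of 23 members of the list for the unfolded protein response and the integrated stress response, 11 were below the midpoint against 4.89% of all genes, none was above it and 6 were below both ends against 0.444% of all genes, with a list median of -0.15. Over the alternative settings 11 to 13 members were below the midpoint and 5 to 8 below both ends. The 6 genes encode lumenal chaperones and disulfide isomerases. A separate list, of amino acid synthesis genes and ATF4 targets, had 6 of 23 tested members above the midpoint and 1 below. Its median was -0.029, and the shares of all genes were 7.2% above and 4.89% below.

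Calr, the calcium-binding chaperone calreticulin, had 1342, 1415 and 1407 CPM in Fast, against 1004, 971 and 989 in Medium and 1238, 1190.1 and 1181 in Slow. Hspa5, the ER Hsp70 known as BiP, had 703, 736 and 769.9 CPM in Fast, against 643, 634 and 646 in Medium and 911, 892 and 902 in Slow. Hsp90b1, the ER Hsp90 known as GRP94, had 796, 805 and 816 CPM in Fast, against 703, 696 and 700.4 in Medium and 895, 877 and 892 in Slow. Medium was lowest in all 3 genes with no overlap, but the ends changed order, since Calr was highest in Fast and the other two were highest in Slow. Differences from the midpoint were -0.39 ± 0.024, -0.35 ± 0.026 and -0.27 ± 0.02, with adjusted p beyond both ends of 6.16e-05, 0.00339 and 0.000263. The disulfide isomerases Pdia3, Pdia4 and Pdia6 differed from the midpoint by -0.20 ± 0.021, -0.35 ± 0.029 and -0.26 ± 0.038. Pdia6 lost its call beyond both ends without Medium library 2 or Slow library 3 (adjusted p = 0.052 to 0.0642). Sdf2l1, Creld2, Hyou1, Canx and Manf were below the midpoint but not called below both ends. The other 12 members missed the threshold, among them the stress sensor Ern1 at 0.10 ± 0.059, the transcription factor Xbp1 at -0.052 ± 0.04 and Ddit3, which encodes the factor CHOP, at -0.10 ± 0.066.

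**Figure D2:**
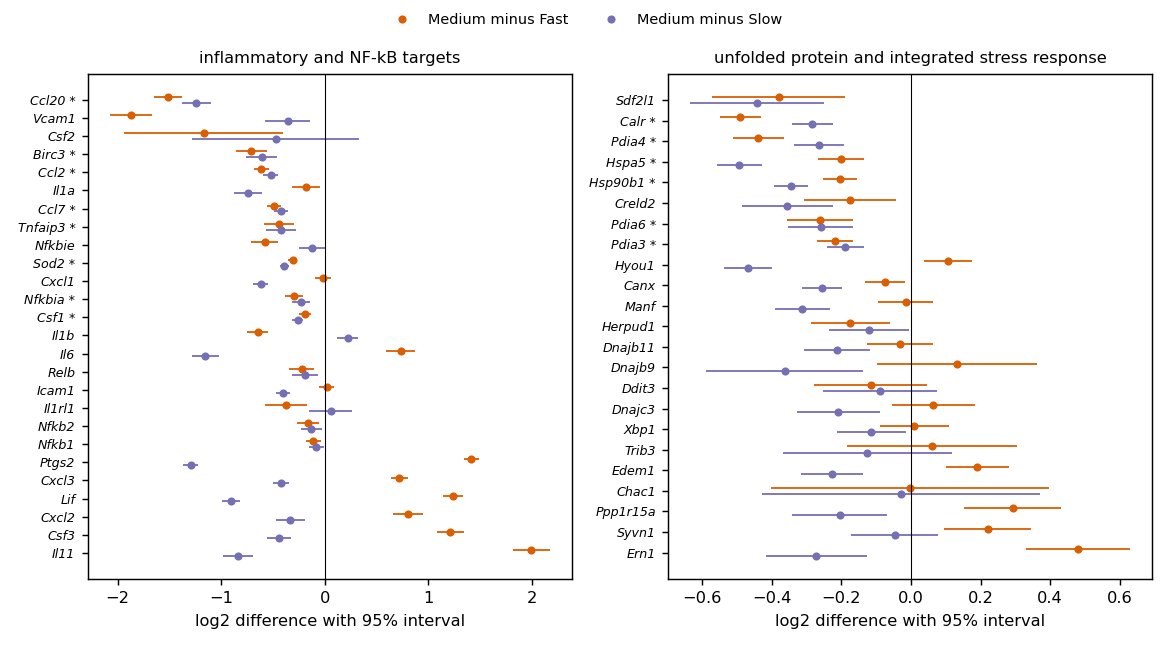
Differences of Medium from Fast and from Slow, in log2 units with 95% intervals, for the tested members of the NF-kB list and of the unfolded protein response list; asterisks mark genes called below both ends. The 8 marked NF-kB targets and the 6 marked ER genes have both intervals left of 0.

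Promoter letters were read for these genes to show which known response elements they hold. The search covered the 250 bases before each start in 33469 rat RefSeq promoters of build GRCr8, on both strands, and the motifs were chosen after the genes were seen. The ER stress response element, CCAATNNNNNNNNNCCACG, which is bound by ATF6 with NF-Y, was in 22 promoters (0.0657%). Of the 6 ER genes below both ends 4 were matched by symbol to a promoter, and Calr, Hspa5 and Hsp90b1 held the element, which may read in the reverse strand. The NF-kB consensus was in 1185 promoters (3.54%), and of the 8 NF-kB targets below both ends 5 were matched and Ccl20, Nfkbia and Tnfaip3 held it. None of the 5 matched NF-kB targets held the ER element and none of the 4 matched ER genes held the NF-kB consensus. At shares of 0.0657% and 3.54% so few genes would hardly show a match, so their absence shows no specificity. The shares count promoters, while a gene was counted if any of its promoters matched. A match describes letters only, and neither binding nor use of a site was measured. The genes come from lists of known members of these responses, so matches above the share of all promoters say nothing on the Medium pattern. List members not below both ends were not counted apart, so a tie between either motif and that pattern was not tested. One stretch per gene follows, 5′ to 3′ in the direction of the gene, with the match in capitals; the element of Calr and the NF-kB matches shown lie on the opposite strand.
Calr, chr19:40213117-40213213, plus strand: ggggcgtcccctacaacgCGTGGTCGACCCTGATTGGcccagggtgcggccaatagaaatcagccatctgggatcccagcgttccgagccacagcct
Hspa5, chr3:38452913-38453015, plus strand: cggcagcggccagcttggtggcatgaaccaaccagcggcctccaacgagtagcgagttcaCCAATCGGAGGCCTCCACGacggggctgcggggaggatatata
Hsp90b1, chr7:23012391-23012529, minus strand: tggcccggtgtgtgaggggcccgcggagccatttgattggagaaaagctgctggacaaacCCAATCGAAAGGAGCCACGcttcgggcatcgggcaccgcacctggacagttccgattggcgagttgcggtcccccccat
Ccl20, chr9:91837010-91837139, plus strand: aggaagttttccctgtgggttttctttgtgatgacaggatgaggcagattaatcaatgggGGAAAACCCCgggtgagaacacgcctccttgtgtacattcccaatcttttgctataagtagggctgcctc
Nfkbia, chr6:78597073-78597163, minus strand: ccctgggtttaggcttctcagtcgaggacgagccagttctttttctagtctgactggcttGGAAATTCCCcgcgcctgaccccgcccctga
Tnfaip3, chr1:15543980-15544106, minus strand: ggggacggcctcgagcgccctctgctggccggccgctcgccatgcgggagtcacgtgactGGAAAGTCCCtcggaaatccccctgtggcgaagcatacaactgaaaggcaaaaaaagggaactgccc

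Some secreted growth factors were also among the genes lowest in Medium. Angpt1, the ligand of the endothelial receptor TIE2 that marrow stroma makes, had 50.2, 51.3 and 50.01 CPM in Fast, against 20.9, 21.04 and 20.6 in Medium and 35.6, 33.9 and 32.2 in Slow. Hgf, the scatter factor that acts on MET, had 123, 109.6 and 109.9 CPM in Fast, against 62.6, 58.4 and 60.6 in Medium and 88.9, 86.2 and 88.8 in Slow. Bmp2, an inducer of bone formation, had 21.6, 19.3 and 21.04 CPM in Fast, against 14.3, 14.7 and 13.1 in Medium and 26.2, 24.9 and 25.5 in Slow. Every Medium library lay under every other library for these genes, and the differences from the midpoint were -0.99 ± 0.054, -0.73 ± 0.046 and -0.71 ± 0.07 (adjusted p beyond both ends = 2.55e-05, 6.16e-05 and 0.00201). Angpt1 and Hgf belong to the growth factor list, Bmp2 to the osteogenic one. Of 20 tested growth factors (median 0.013) 5 were above the midpoint against 7.2% of all genes and 5 below it against 4.89%. Below both ends were 2, against 0.444% of all genes. Pdgfa, a mitogen of stromal cells, was above the midpoint by 0.71 ± 0.043. Fgf10, a ligand of the FGF family, was below it at -0.43 ± 0.048.

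Other genes far below both ends had varied roles. Ppap2b, a phosphatase that breaks down extracellular lysophosphatidic acid, had 104, 108 and 104 CPM in Fast, against 58.1, 59.4 and 58.2 in Medium and 95.9, 92.8 and 94.9 in Slow. Cyp7b1, a hydroxylase of oxysterols, had 31.2, 30.2 and 28.2 CPM in Fast, against 8.59, 9.37 and 7.82 in Medium and 12.4, 13.04 and 14.2 in Slow. Cx3cl1, the membrane-bound chemokine fractalkine, had 37.1, 35.7 and 31.7 CPM in Fast, against 9.41, 10.6 and 10.3 in Medium and 15.04, 16.4 and 14.9 in Slow. Medium was lowest in every case, with adjusted p beyond both ends of 5.02e-07, 0.00426 and 0.00318. Enpp2, the autotaxin that makes lysophosphatidic acid, was below the midpoint, at -1.25 ± 0.11, and had 72.7, 61.2 and 67.6 CPM in Fast, against 19.2, 14.1 and 16.9 in Medium and 26.9, 24.5 and 19.5 in Slow. Its lowest Slow library, at 19.5 CPM, lay just over the highest Medium library, at 19.2 CPM, and Enpp2 was not called below both ends.

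Matrix proteases and their inhibitors departed from the midpoint in both directions. Of 23 tested members 11 were below against 4.89% of all genes and 8 above against 7.2%, with a median of -0.10, and over the settings 9 to 12 were below and 7 to 9 above. Below both ends were 2 members, Mmp13 and Adamts5. Mmp13, the collagenase of bone and cartilage, had 3093, 2716 and 2713 CPM in Fast, against 811, 812 and 808 in Medium and 1078, 1003 and 1023 in Slow, so that Medium was just under Slow and far under Fast. Medium minus Slow was -0.35 ± 0.043 and Medium minus Fast -1.81 ± 0.042 (adjusted p beyond both ends = 0.000515). Adamts3, which trims procollagen and is not in the list, and Adamts5, an aggrecanase, were below both ends too, at 46.8, 29.3 and 42.8 CPM in Fast, Medium and Slow and at 46.9, 31.6 and 41.5 CPM in Fast, Medium and Slow. The call of Adamts5 was lost without Medium library 1 or 3 or Slow library 2 or 3 (adjusted p = 0.0748 to 0.0969). Mmp3, Mmp10, Mmp14 and Plat were below the midpoint, at -0.35 ± 0.031, -0.36 ± 0.069, -0.25 ± 0.018 and -0.35 ± 0.049. The genes of the list above the midpoint included the inhibitor Timp1, at 0.14 ± 0.024, and the aggrecanase Adamts4, at 0.53 ± 0.055.

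The genes highest in Medium included cartilage and bone genes. Among 8 tested chondrogenic genes 3 were above the midpoint against 7.2% of all genes, none was below it and 2 were above both ends against 0.451% of all genes. Sox9, the transcription factor that starts cartilage formation, had 54.2, 53.9 and 60.4 CPM in Fast, against 137, 134 and 151 in Medium and 113, 108 and 113 in Slow. Acan, the cartilage proteoglycan aggrecan, had 139, 141 and 147 CPM in Fast, against 446, 418 and 445 in Medium and 372, 389.7 and 384 in Slow. Medium exceeded Slow by 0.34 ± 0.054 and 0.19 ± 0.034 and Fast by 1.33 ± 0.057 and 1.62 ± 0.036, so most of the distance was from Fast (adjusted p beyond both ends = 0.00436 and 0.0111). The call of Acan was lost without Medium library 1 or 3 or Slow library 1 or 3 (adjusted p = 0.0635 to 0.0975). Sox6, a partner of Sox9, was above the midpoint by 1.07 ± 0.26 but stood at only 1.02 ± 0.0431, 2.74 ± 0.932 and 1.65 ± 0.322 CPM in Fast, Medium and Slow, and that call was lost without Medium library 3 (adjusted p = 0.117). The matrix genes Comp, Hapln1 and Col11a1 missed the threshold, at 0.15 ± 0.26, 0.059 ± 0.44 and -0.043 ± 0.027.

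Among 19 tested osteogenic genes 8 were above the midpoint against 7.2% of all genes and 3 below against 4.89%. Of these 1, Spp1, was above both ends against 0.451% of all genes and 1, Bmp2, below both against 0.444%. Spp1, the secreted matrix protein osteopontin, had 15103, 14545 and 14464 CPM in Fast, against 25828, 25646 and 25633 in Medium and 22601, 22046 and 22132 in Slow, and was above both ends (adjusted p = 8.13e-06). Vdr, the vitamin D receptor, was picked out after its values were seen and had 26.4, 24.9 and 26.3 CPM in Fast, against 57.2, 56.8 and 58.4 in Medium and 40.7, 40.4 and 40.7 in Slow (adjusted p = 0.000119). In both genes the Medium libraries lay over all others. Ankh, which exports pyrophosphate, and Enpp1, which makes it, were above the midpoint by 0.97 ± 0.023 and 0.58 ± 0.029, Ankh being level with Slow at 229, 909 and 943 CPM in Fast, Medium and Slow. Mepe, made by osteocytes, was low in count and above the midpoint by 0.78 ± 0.13, with 7.41, 8.32 and 3.15 CPM in Fast, Medium and Slow. Alpl, the bone alkaline phosphatase, was below it at -0.41 ± 0.029. Ibsp, bone sialoprotein, was graded, with 348 ± 26.9, 136 ± 2.26 and 50.1 ± 1.16 CPM in Fast, Medium and Slow (SD, n = 3).

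Some structural and adhesive genes also peaked in Medium. Col5a3, a chain of type V collagen, had 228, 277 and 274 CPM in Fast, against 366, 371 and 367 in Medium and 202, 208 and 203 in Slow. Tnc, the adhesion-modulating glycoprotein tenascin C, had 1019.6, 988 and 995 CPM in Fast, against 1629, 1602 and 1611 in Medium and 1431, 1413 and 1444 in Slow. Tgfbi, a matrix protein induced by TGF-beta, had 550.2, 536 and 545 CPM in Fast, against 662, 665 and 669 in Medium and 413, 416 and 414 in Slow. None of their Medium values overlapped another group (adjusted p beyond both ends = 0.000216, 0.000616 and 1.25e-05). Itga10, the collagen-binding integrin chain of chondrocytes, stood at 9.91, 9.63 and 9.203 CPM in Fast, against 17.7, 18.6 and 18.8 in Medium and 9.197, 10.4 and 11.5 in Slow, and Medium exceeded Slow by 0.83 ± 0.10 (adjusted p beyond both ends = 0.000515). Vim, the intermediate filament protein vimentin, was picked once its values had been seen and had 4913, 4974 and 4973 CPM in Fast, against 6496, 6636 and 6615 in Medium and 5414, 5356 and 5265 in Slow. Its difference from the midpoint was 0.36 ± 0.015 (adjusted p beyond both ends = 3.92e-07), a small change in a very abundant RNA. In the deposited FPKM, which are per length, Spp1 averaged 16828 ± 78.4 in Medium and Vim 3525 ± 39.9 (SD, n = 3), the highest levels among the 65 genes above both ends, whose median was 32.5.

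The whole matrix did not follow. Of 18 tested collagens 2 were above the midpoint against 7.2% of all genes and 2 below against 4.89%, with 4 and 4 without Fast library 1, and the median was -0.017. Of 22 matrix glycoproteins 5 were above and 7 below, against the same 7.2% and 4.89% of all genes. The count below was 4, 3 and 2 without Medium library 1, 2 and 3. Thbs2, an inhibitor of vessel growth, and Nid1, a basement membrane linker, were below both ends at 6404, 5426 and 6309 CPM in Fast, Medium and Slow and at 691, 615 and 702 CPM in Fast, Medium and Slow, chosen after their values were seen. Loxl1, Lox and Adamts2, which crosslink or trim fibril proteins, were below the midpoint, at -0.51 ± 0.042, -0.27 ± 0.029 and -0.47 ± 0.078. P4ha2, which hydroxylates collagen prolines, was below both ends at 306, 260.2 and 301 CPM in Fast, Medium and Slow. Of 22 TGF-beta and BMP targets (median 0.11) 10 were above the midpoint against 7.2% of all genes and 3 below against 4.89%. Tgfbi aside, these included Pmepa1 and Inhba at 0.47 ± 0.034 and 0.44 ± 0.027, while Fst, an activin antagonist, was below at -0.60 ± 0.075. Ctgf, a target shared with YAP, was called above both ends in a small step from Slow of 0.11 ± 0.02, and the call was lost without Medium library 1 or 2 or 3 or Slow library 1 or 2 or 3 (adjusted p = 0.0842 to 0.129) and with no filter beyond 1 count (adjusted p = 0.0632).

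The genes farthest above both ends had other roles. Klhl40, a Kelch protein that stabilises thin filaments in muscle, had 2.48, 3.69 and 2.98 CPM in Fast, against 28.4, 29.3 and 32.99 in Medium and 15.8, 16.03 and 17.1 in Slow. It lies at chromosome 8, 130416355 to 130421871. Cadm4, an immunoglobulin-type adhesion molecule, had 28.7, 38.6 and 34.3 CPM in Fast, against 129.7, 129.7 and 130.1 in Medium and 76.9, 72.7 and 75.1 in Slow. Fast was lowest and Medium highest for both, with wide gaps between all 3 groups, and Medium exceeded Slow by 0.89 ± 0.10 and 0.79 ± 0.069 (adjusted p beyond both ends = 0.000263 and 2.00e-05). Qprt, an enzyme of NAD synthesis from quinolinate, had 5.21, 5.07 and 5.62 CPM in Fast, against 11.1, 11.1 and 13.1 in Medium and 4.85, 6.03 and 5.62 in Slow. Capn6, a calpain that lacks protease activity and binds microtubules, had 4.301, 3.82 and 4.06 CPM in Fast, against 8.7996, 8.15 and 8.96 in Medium and 3.07, 3.18 and 2.71 in Slow. Slc7a3, a carrier of cationic amino acids, had 6.13, 6.01 and 5.41 CPM in Fast, against 13.8, 16.4 and 15.2 in Medium and 9.91, 8.24 and 6.73 in Slow. The Medium libraries of these 3 genes did not overlap others, and the smaller of the differences from Fast and Slow were 1.09 ± 0.14 for Qprt against Slow, 1.09 ± 0.15 for Capn6 against Fast and 0.87 ± 0.14 for Slc7a3 against Slow. Sema7a, a membrane-anchored semaphorin that signals through integrins, was at 41.2, 85.8 and 53.1 CPM in Fast, Medium and Slow, and Shroom2, an actin-binding regulator of cell shape, at 3.96, 8.28 and 3.099 CPM in Fast, Medium and Slow. The call of Shroom2 was lost without Fast library 3 or Medium library 1 or 2 (adjusted p = 0.0565 to 0.102).

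**Figure D3:**
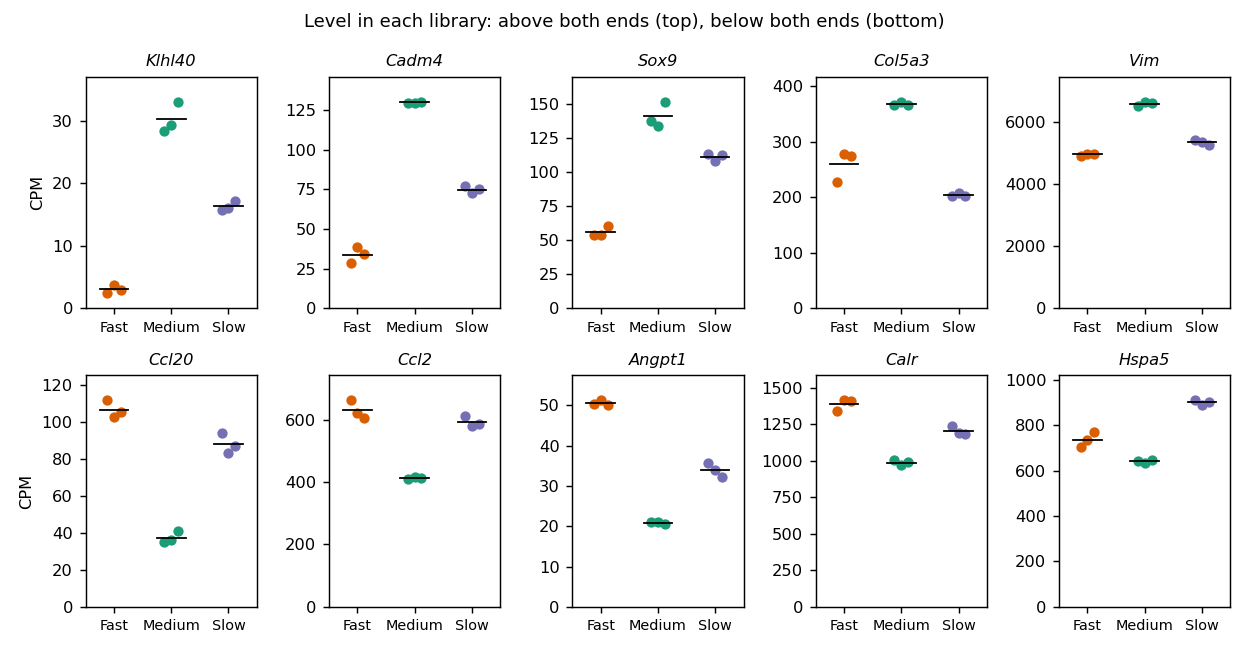
CPM of 10 genes in each of the 9 libraries, points being libraries and bars group means, with axes starting at 0. Medium is highest for the 5 genes of the top row (Klhl40, Cadm4, Sox9, Col5a3, Vim) and lowest for the 5 of the bottom row (Ccl20, Ccl2, Angpt1, Calr, Hspa5), without overlap in any of them.

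Early response genes were mostly above the midpoint without being beyond both ends. Of 24 tested immediate early genes, which are switched on by serum, strain and other acute signals, 21 were above the midpoint against 7.2% of all genes and none was below it, with a median of 0.43. Only Egr3 was called above both ends, and that call was lost without Medium library 1 or 2 or 3 or Slow library 1 or 2 or 3 (adjusted p = 0.111 to 0.198), and with DESeq2 (0.08002) and limma on log2 CPM (0.07657). Egr1, a zinc finger transcription factor, had 153, 140.1 and 148 CPM in Fast, against 331, 322 and 328 in Medium and 319.8, 329 and 328 in Slow. Its Medium and Slow libraries overlapped and both lay far over Fast. Fos, a subunit of AP-1, had 12.1 ± 1.39, 21.97 ± 1.03 and 21.6 ± 0.927 CPM in Fast, Medium and Slow, and Klf2, a factor induced by flow in endothelium, had 11.9 ± 0.704, 30.1 ± 1.405 and 30.01 ± 2.08 CPM in Fast, Medium and Slow (SD, n = 3). Nr4a1, an orphan nuclear receptor, had 102, 105 and 107 CPM in Fast, against 364, 373 and 356 in Medium and 469, 459 and 449 in Slow, so that Medium stayed under Slow, with Medium minus Slow at -0.33 ± 0.031. The median of the list was 1.04 for Medium minus Fast and -0.064 for Medium minus Slow. Against Slow 7 members were lower in Medium, 3 were higher and the others missed the threshold.

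Other lists also had members above the midpoint, to be read against 7.2% of all genes above and 4.89% below. Of 17 ERK feedback genes 6 were above and 1 below (none below without Fast library 3, Medium library 2 or 3 or Slow library 2 or 3), with Dusp6, the phosphatase of ERK, at 69.9 ± 2.397, 176 ± 2.48 and 185 ± 6.596 CPM in Fast, Medium and Slow. Of 18 tested targets of NRF2, the factor of the antioxidant response, 12 were above and none below. Nqo1, a quinone reductase, had 662, 656 and 641 CPM in Fast, against 2596, 2600.4 and 2582 in Medium and 3184, 3060.02 and 3059.8 in Slow, in steps from Fast through Medium to Slow with a larger first step. Srxn1, G6pdx and Txnrd1 were above the midpoint by 0.49 ± 0.088, 0.36 ± 0.026 and 0.32 ± 0.024. Of 12 tested glucocorticoid targets 6 were above, among them Fkbp5, a chaperone of the steroid receptors, by 0.60 ± 0.079, and 2 below. Those counts were 3 and 0 without Medium library 2, 4 and 0 without Medium library 3, and 1 was below without Slow library 1 or 2. Circadian genes had 4 of 17 above, including Nr1d1 and Bhlhe40 by 0.31 ± 0.037 and 0.32 ± 0.029, and none below.

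**Figure D4:**
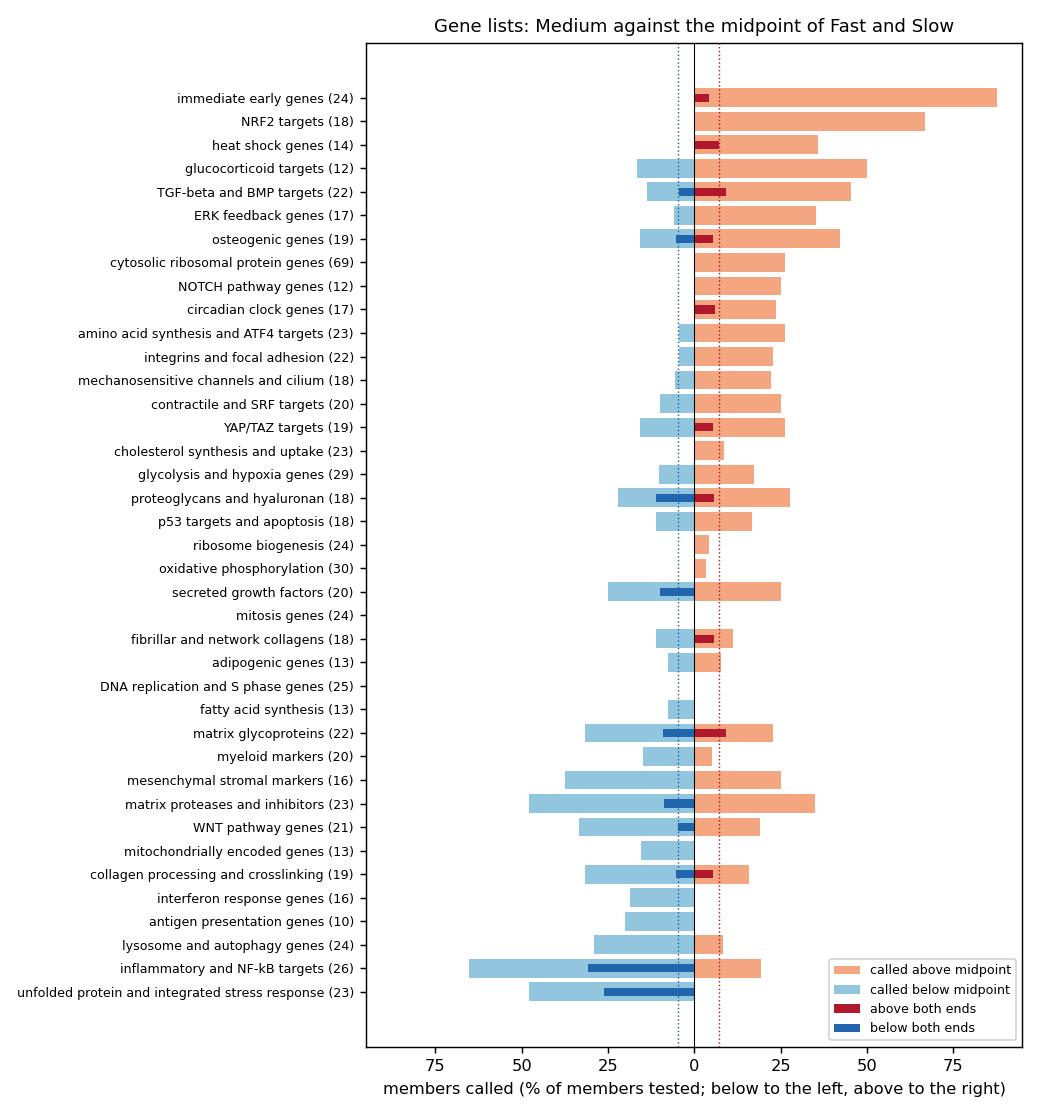
Share of tested members called above (right) or below (left) the midpoint for lists with at least 10 tested members, with narrow bars for members called beyond both ends and dotted lines at the shares of all genes, 7.2% and 4.89%. Immediate early genes reach farthest to the right and NF-kB targets farthest to the left.

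Few cell cycle and oxidative phosphorylation genes were called against the midpoint. None of 25 S phase genes and none of 24 mitosis genes was called by edgeR, DESeq2 or limma, with 2 and 1 genes at an unadjusted p under 0.05 in the edgeR test. Fast exceeded Slow in 13 and 22 of them, against 21.2% of all genes. For the lists that follow, the shares of all genes were 7.2% above and 4.89% below. Of 30 oxidative phosphorylation genes 1 was above and none below. The count above was 0 to 2 without 1 library, and 2 were below with library size only. Glycolysis and hypoxia genes had 5 of 29 above and 3 below. Cytosolic ribosomal protein genes were above the midpoint in 18 of 69 cases and below in none, by a median of 0.066. That count was 8 with library size as the only scaling and 5, 8 and 10 without Medium library 1, 2 and 3, so it was not stable. Rps6 was 1 of the 18, and its call was lost without Medium library 1, as described further on. Interferon response genes had 3 of 16 below and none above, and the 3 became 1, 0 and 1 without Medium library 1, 2 and 3. Myeloid markers had 3 of 20 below and 1 above.

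Where Medium sat between the ends was described for the 1148 genes (7.97%) with an adjusted p under 0.05 and at least a 2-fold difference from Fast to Slow. The relative position is 0 at the Slow level and 1 at the Fast level on the log2 scale. Its median was 0.282, with an interquartile range of 0.109 to 0.444, and 932 genes (81.2%) were nearer Slow. The median was 0.315 for the 682 genes higher in Fast and 0.219 for the 466 genes lower in Fast. Without any 1 library the median stayed between 0.275 and 0.303. On the CPM scale it was 0.240 for all, 0.197 for genes higher in Fast and 0.330 for genes lower in Fast, so the order of these classes depends on the scale. The genes were chosen on Fast and Slow levels that also enter the position, so it carries no test.

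**Figure D5:**
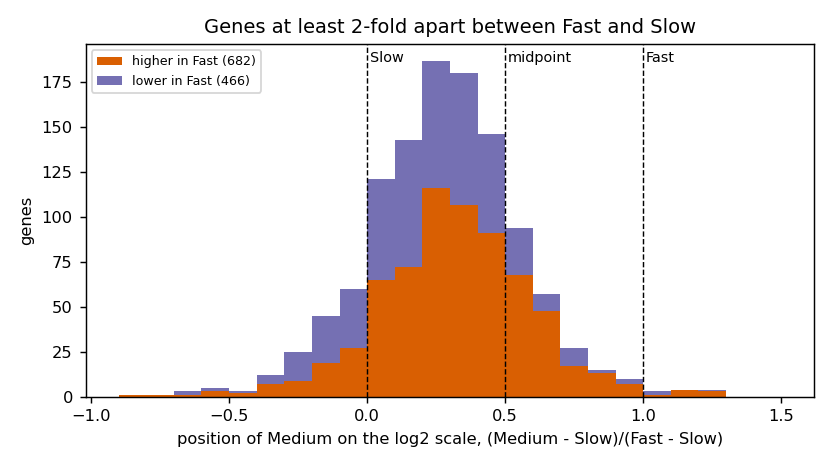
Number of genes by the position of Medium on the log2 scale, 0 being the Slow level and 1 the Fast level, stacked for 682 genes higher and 466 genes lower in Fast; positions outside -0.9 to 1.5 are drawn at the edges. The peak lies between the Slow level and the midpoint, and few genes lie near Fast.

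A 95% interval within 0.25 log2 units of a level placed 40 of these genes at the Slow end, 57 at the midpoint and none at the Fast end. A further 203 genes lay between the midpoint and Slow, 10 between the midpoint and Fast, 23 beyond Slow and 1 beyond Fast, and 814 (70.9%) could not be placed at this precision. At the Slow end, Cxcl12, the chemokine that keeps blood stem cells in marrow, had 949, 906 and 899 CPM in Fast, against 182, 188 and 185 in Medium and 188, 195 and 189 in Slow. Scn7a, a sodium channel, and Lbh, a transcription cofactor, were also level with Slow, at 8.31, 34.98 and 33.5 CPM in Fast, Medium and Slow and at 12.4, 45.9 and 46.4 CPM in Fast, Medium and Slow. Between the midpoint and Slow, Sned1, a matrix protein, had 145 ± 4.24, 23.6 ± 3.04 and 9.36 ± 1.302 CPM in Fast, Medium and Slow, Akr1c14, a steroid reductase, had 92.3 ± 1.95, 14.2 ± 1.499 and 6.35 ± 1.08 CPM in Fast, Medium and Slow, and C6, a terminal complement component, had 17.9 ± 0.748, 1.27 ± 0.16 and 0.633 ± 0.183 CPM in Fast, Medium and Slow (SD, n = 3). At the midpoint were Ibsp and Ptgs2, given above, with Lif, a cytokine of the interleukin 6 family, at 45.4 ± 2.18, 107 ± 2.93 and 201 ± 4.98 CPM in Fast, Medium and Slow and Plekhg4, a guanine nucleotide exchange factor, at 447 ± 8.098, 239.7 ± 7.81 and 123 ± 3.42 CPM in Fast, Medium and Slow. The test also called Lif above the midpoint, by 0.17, which lies inside the margin.

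Few genes were placed nearer Fast. Il6, the inflammatory cytokine interleukin 6, had 48.6, 40.5 and 40.4 CPM in Fast, against 74.4, 70.9 and 69.8 in Medium and 162, 153 and 164 in Slow, which placed Medium at 0.612 of the way from Slow to Fast. Ccl6, a rodent chemokine, had 20.7, 18.6 and 21.4 CPM in Fast, against 47.7, 49.6 and 51.1 in Medium and 155, 154 and 155 in Slow. In both genes Slow stood apart and Medium lay in the lower part of the range. Matn2, a matrix adaptor protein, and Tmem158, a membrane protein induced by RAS, ran the other way, at 14.1, 9.42 and 2.63 CPM in Fast, Medium and Slow and at 31.6, 21.9 and 10.4 CPM in Fast, Medium and Slow. The midpoint calls of Il6 and Ccl6 were small, at -0.21 ± 0.055 and -0.17 ± 0.046, and were lost without Medium library 2 (adjusted p = 0.0882 and 0.0729). The call of Il6 was also lost without Medium library 3 or Slow library 3 (adjusted p = 0.101 and 0.051), and that of Ccl6 without Fast library 3 or Medium library 1 (adjusted p = 0.055 and 0.122).

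Beyond the Slow end were Klhl40 and the low-count genes Anxa8, an annexin, and Xcl1, the chemokine lymphotactin. Anxa8 had 0.652, 1.001 and 1.62 CPM in Fast, against 10.4, 12.8 and 12.98 in Medium and 6.63, 6.81 and 8.05 in Slow and Xcl1 0.717, 1.69 and 1.29 CPM in Fast, against 10.6, 10.6 and 10.04 in Medium and 7.06, 6.88 and 8.12 in Slow. Medium was above Slow in every library of both, with differences of 0.75 ± 0.19 and 0.50 ± 0.18, and that class rests on an unadjusted 95% interval, since neither gene was called beyond both ends (adjusted p = 0.128 and 0.584). Rrad, a small GTPase that inhibits calcium channels, lay under Slow in mean at 22.4 ± 2.31, 4.27 ± 0.107 and 5.42 ± 1.03 CPM in Fast, Medium and Slow. Among the other genes farthest from the midpoint, Dcx, a microtubule protein, and Bpifa2, a secreted lipid-binding protein, were at 1.07, 7.94 and 6.49 CPM in Fast, Medium and Slow and at 0.888, 9.85 and 14.1 CPM in Fast, Medium and Slow. Chi3l1, a secreted chitinase-like protein, was below the midpoint and level with Slow in mean, at 9.01, 1.48 and 1.47 CPM in Fast, Medium and Slow.

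Some of the largest departures rested on uneven libraries. Nhp2, a small nucleolar ribonucleoprotein, had 0.0652, 14.8 and 0.271 CPM in Fast, against 0.273, 24.2 and 15.3 in Medium and 0.143, 0 and 0.347 in Slow, and Ebna1bp2, a nucleolar protein, had 6.06, 0.188 and 11.3 CPM in Fast, against 11.3, 5.57 and 9.54 in Medium and 0.143, 0.389 and 0.833 in Slow. Values in the same group ranged from near 0 to over 10 CPM. The entry labelled Rps6, a ribosomal protein, had 6.39, 6.44 and 6.63 CPM in Fast, against 56.96, 7.26 and 7.31 in Medium and 6.203, 6.81 and 6.18 in Slow, so that Medium library 1 stood alone, and without it the difference from the midpoint was 0.18 (adjusted p = 0.508). Its mean FPKM were 8.66, 31.9 and 8.56 in Fast, Medium and Slow, against 1201, 1333 and 1247 for Rps20 and 630, 679 and 618 for Rpl6. Whether this entry reflects the main expressed gene of that protein was not tested. Hnrnpc, a binder of nuclear RNA, had 20.1, 11.9 and 6.699 CPM in Fast, against 6.96, 6.38 and 5.45 in Medium and 25.7, 7.72 and 33.3 in Slow, and its call was lost without any 1 Medium library (adjusted p = 0.0885 to 0.125) and without Slow library 1 or 3 (adjusted p = 0.0577 and 0.0665). The call of Nhp2 was lost without Medium library 2 or 3, Fast library 3 or any 1 Slow library (adjusted p = 0.0615 to 0.222), and that of Ebna1bp2 without Medium library 1 or 3 or Slow library 1 or 2 (adjusted p = 0.054 to 0.0923). Mast4, a kinase and the 1 gene beyond Fast, had 1.56, 4.32 and 3.92 CPM in Fast, against 2.797, 0.204 and 1.29 in Medium and 8.56, 10.3 and 9.58 in Slow and lost its call without Medium library 3 (adjusted p = 0.058). Marf1, a regulator of RNA, had 3.39, 2.13 and 2.23 CPM in Fast, against 11.9, 10.7 and 3.73 in Medium and 4.85, 3.24 and 4.03 in Slow, with 1 Medium library inside the Slow range. Whether reads of near-identical copies or overlapping genes were assigned to either was not tested, and the use of strand in counting is not given in the sources used here.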

How the data were processed

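RNA-seq values of 9 libraries came from a single table, and every column of per-sample values was matched to a sample by its name. Per the file headers, the authors deposited a whole-number read count and an FPKM per gene and library. HTSeq, Cufflinks 2.1.1, Bowtie 0.12.9 and mm10 appear in the submitters' processing notes without a role. Since the identifiers are rat Ensembl identifiers, the build of the table's coordinates is not given in the sources used here. Genes were filtered with filterByExpr (minimum count 10, smallest group 3), which kept 99.909% of counts, scaled with TMM factors and fitted with edgeR 4.0.16 in R 4.3.3, with all 9 libraries in 1 model with a term per group. The common biological coefficient of variation was 7.44%, and the quasi-likelihood test of Medium minus the mean of Fast and Slow was two-sided, with Benjamini-Hochberg adjustment over 14406 genes. CPM use TMM factors, except in marker sums, which use library size. Replicate libraries differed beyond counting noise (chi-square per degree of freedom 2.88 to 6.36) and were kept apart. FPKM were used only to set levels of different genes side by side.

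The comparison, the 44 gene lists and the settings were chosen with earlier results of these data known. Named genes had a mean of at least 50 counts and a symbol that is not a placeholder. They were the 10 farthest above and 10 farthest below the midpoint, the 8 farthest above and 8 farthest below both ends, the 4 with the largest difference between Fast and Slow in each class of position, and in each list up to 3 members, those of smallest adjusted p. List members named beyond these, and other genes said to be, were chosen after their values were seen. Some genes named by the rule are not described. Alternatives were other scalings and filters, DESeq2 1.42.0, limma 3.58.1 (voom and log2 CPM), a replicate block, an arithmetic midpoint, other margins and fold limits, and each library left out in turn. Tests were first run on simulated counts. Promoters are from RefSeq (GRCr8).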

Additional observations from a re-analysis of the deposited data

How the results depend on the processing

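Directions held for all 139 genes named by the rule except under an arithmetic midpoint, where Ibsp turned to -0.54, Ptgs2 to -0.50, Lif to -0.20, Plekhg4 to -0.25 and Itga7 to -0.22 on the log2 scale. That midpoint is higher than the log2 one whenever the ends differ, by its construction, and it gave 1758 calls, 892 above and 866 below.

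Counts against the midpoint ranged over 1208 to 2003 without 1 library (733 to 1201 above, 475 to 802 below). Counts beyond both ends ranged over 78 to 173 (37 to 94 above, 40 to 79 below), and were 149 with DESeq2, 131 with limma-voom and 128 with limma on log2 CPM. A minimum of 0.5 log2 units left 421 (258 and 163) against the midpoint and 34 (21 and 13) beyond both ends. No filter beyond 1 count gave 242 beyond both ends (128 and 114).

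Without 1 library, 32 to 46 genes were at the Slow end, 175 to 201 between it and the midpoint, 41 to 53 at the midpoint, 9 to 14 between it and Fast, 0 at the Fast end, 20 to 27 beyond Slow, 0 to 2 beyond Fast and 801 to 892 unplaced. Margins set these counts. A margin of 0.15 gave 10 at the Slow end and 15 at the midpoint, and 0.4 gave 123, 121 between Slow and the midpoint, 161, 4 between the midpoint and Fast and 2 at the Fast end. With a 1.5-fold limit there were 198 at the Slow end, 245 at the midpoint, 11 at the Fast end, 49 beyond Slow and 1482 unplaced. With a 3-fold limit there were 10, 97 between Slow and the midpoint, 10, 4 between the midpoint and Fast, 5 beyond Slow, 0 beyond Fast and 361 unplaced.

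No label says what a replicate number marks. Deviations of same-numbered libraries correlated at -0.012 to 0.13 over 9 pairs, of which 8 were positive and 4 passed 0.1. Over 18 pairs of other numbers the range was -0.18 to 0.13, with 3 pairs positive and 1 over 0.1. The means were 0.078 and -0.039. Deviations from a group mean cancel within the group, so a positive mean for same numbers forces a negative one for other numbers. The negative mean is therefore no separate evidence. The main fit did not take the numbers as pairs, and whether they mark pairs was not tested. With a replicate block there were 1699 calls against the midpoint and 126 beyond both ends, 117 of them shared with the 129; the block ended the call of Egr3 (adjusted p = 0.0772). With 3 libraries a group, 814 of 1148 genes could not be placed.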

Other observations

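Antagonists of the WNT pathway took opposite sides of the midpoint. Of 21 tested members of that list 7 were below the midpoint and 4 above it, against 4.89% and 7.2% of all genes, with a median of -0.056. Sfrp1, a secreted binder of WNT ligands, had 164, 158 and 161 CPM in Fast, against 46.9996, 43.9 and 44.5 in Medium and 44.9, 38.02 and 40.5 in Slow, a difference from the midpoint of -0.85 ± 0.05 with Medium nearer Slow. Sfrp2, of the same family, had 16.2, 16.01 and 15.2 CPM in Fast, against 6.48, 6.86 and 6.74 in Medium and 6.13, 5.58 and 6.87 in Slow, a difference of -0.56 ± 0.10. Frzb, a related antagonist of cartilage, had 12.4, 11.8 and 11.98 CPM in Fast, against 11.5, 12.1 and 11.7 in Medium and 1.92, 2.92 and 3.47 in Slow, which put Medium above the midpoint by 1.02 ± 0.13. Lysosome and autophagy genes were below the midpoint in 7 of 24 cases, against 4.89% of all genes. Above it were 2, against 7.2%, and only 1 without any 1 Medium or Slow library. Lamp1, a lysosomal membrane protein, had 941 ± 11.98, 767 ± 5.26 and 786 ± 4.74 CPM in Fast, Medium and Slow (SD, n = 3). Heat shock genes were above the midpoint in 5 of 14 cases, against 7.2% of all genes, and below in none. The small chaperone Hspb8 had 21.5 ± 1.78, 44.8 ± 1.45 and 54.2 ± 1.697 CPM in Fast, Medium and Slow, a difference of 0.39 ± 0.056 (edgeR, adjusted p = 0.000188).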
